A study of Mus musculus with 20 samples.

Results

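The response of the cortex to a null mutation in mice was compared with the response of the cerebellum. The members were the 5 arrays titled cortex and the 5 titled cerebellum, 10 of the 20 arrays of the series. Each array held amplified RNA of a brain region of a mouse with the null mutation in one channel and pooled RNA of the same region of wild-type mice in the other. In each region 3 arrays had the mutant RNA in channel 1 and 2 arrays, the dye swaps, had it in channel 2. Hippocampus and brain stem-diencephalon, with 5 arrays each, entered the filter for missing values and the fit. There they shared the estimate of the spread and the term for dye orientation. The labels give no strain, age or sex of the mice and do not say whether array numbers stand for separate animals. The p-values therefore measure only how far these samples scatter, and that scatter may be technical. Variation among wild-type animals does not enter, since the pool was the sole control.

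The cerebral cortex and the cerebellum differ in their cells: the cerebellum is dominated by small granule neurons and the output of Purkinje cells, and the cortex by excitatory pyramidal neurons and inhibitory interneurons. Both also hold astrocytes, which clear glutamate and buffer ions, and microglia, the resident macrophages, which make complement C1q and lysosomal proteases. The comparison asked which genes answered to the mutation differently in these regions.

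A value is a log2 ratio, null over wild type, with the swapped arrays turned and each array centred on its median. That direction is the likely one, since neither the channel order nor the log base is stated; with the other order every sign below turns. Arrays of one region and number were averaged, which left 4 replicates in cortex (numbers 1, 2 and 3 and a swapped array without a number, called DS) and 3 in cerebellum. The unnumbered array may repeat a numbered extract. The ratio carries no expression level, so the labelled tissue could not be checked against its markers.

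Some libraries stood apart from their labels. The swapped array of cerebellum number 1, cerebellum DS1, is also deposited as a swapped array of brain stem-diencephalon number 2; the copies correlated at 0.995 over 6748 probes. On Eif2s3y, a Y-linked gene of a translation initiation factor, 6 of the 7 arrays numbered 1 lay between -1.36 and -0.44, and the 12 other arrays with a value lay between 0.94 and 1.71. The exception among the arrays numbered 1 was cerebellum DS1, at 1.71. Cerebellum replicate 1 therefore averages arrays of opposite sign on this gene, -0.77 and 1.71. X-linked Xist, the RNA that coats the inactive X chromosome, lay between 0.05 and 0.46 in the replicates of both regions. The calls and the counts of the leading gene lists are given with and without DS1, and single values for some of the genes that it moved.

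The difference of the responses, cortex minus cerebellum, passed an adjusted p of 0.05 for 4 of 8319 features (0.0481%). All 4 lay lower in cortex and none lay higher (0%). They were Cst3 and 3 probes that have no gene name in the tables used here. A further unnamed probe, 7735, lay higher in cortex by 0.72 and fell just short (adjusted p = 0.05015 by limma). It passed in some alternatives, such as values not centred and arrays scaled to one spread. At an unadjusted p of 0.05, 508 features differed (6.11%), 280 of them lower in cortex (3.37%) and 228 higher (2.74%). The replicates of the regions did not overlap for 531 features (6.38%), 257 lower in cortex (3.09%) and 274 higher (3.29%). Without DS1, 3 features passed (0.0361%), the unnamed probes called above, and 569 did not overlap (6.84%). The median standard error of a difference was 0.15 and the median half-width of its 95% interval 0.32. Most differences below that size thus fell short of even an unadjusted p of 0.05. The adjusted test needed more, and the called difference of the smallest size was -0.79 (Cst3).

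Cst3 encodes cystatin C, a secreted inhibitor of the cysteine cathepsins that astrocytes and microglia make in quantity. Its log2 ratio was -0.20, -0.34, -0.39 and -0.70 in cortex replicates 1, 2, 3 and DS, and 0.49, 0.43 and 0.23 in cerebellum replicates 1, 2 and 3. Every cortex replicate lay below 0 and every cerebellum replicate above it. The fitted responses were -0.42 ± 0.08 (SE, n = 4) and 0.36 ± 0.10 (SE, n = 3), and their difference was -0.79 ± 0.13 (SE; adjusted p = 0.0442 by limma). Without DS1 the difference was -0.81 (adjusted p = 0.06). It stayed below 0 in all 30 alternatives and passed in 12 of them, with adjusted p from 0.00391 to 0.334. Of the 13 replicates of the fit, leaving out cortex replicate 1 (adjusted p = 0.0198) or hippocampus replicate 1 (adjusted p = 0.0395) kept the call. Leaving out any other replicate ended it, with adjusted p from 0.0646 without brain stem-diencephalon replicate 2 to 0.334 without cerebellum replicate 2.

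On single arrays Cst3 lay between 0.23 and 0.64 on the 5 cerebellum arrays, DS1 included at 0.34. The hippocampus arrays, from -0.36 to -0.04, lay on the side of cortex. So did the 3 brain stem-diencephalon arrays with a value other than the repeated one, at -0.28, -0.10 and -0.08.

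The 3 unnamed probes gave the largest called differences. Probe 6396 had ratios of -0.18, -0.29 and -0.53 in cortex replicates 1, 2 and DS and of 1.67 and 1.94 in cerebellum replicates 1 and 2; the third replicate of each region had no value. Its difference was -2.15 ± 0.27 (SE; adjusted p = 0.0261), and it was called in 25 of 30 alternatives. Probe 6951 had ratios of -0.06, -0.70, -0.72 and -0.59 in cortex and of 0.49, 0.53 and 0.57 in cerebellum, with a difference of -1.05 ± 0.16 (SE; adjusted p = 0.0397). It was called in 17 of 31 alternatives. The replicates of these probes did not overlap between the regions. Probe 13821 had ratios of -1.19, -0.14, -1.41 and -0.79 in cortex and of -0.03, 0.13 and -0.21 in cerebellum. Its replicates overlapped, since cortex replicate 2, a swapped array alone, lay above cerebellum replicate 3, yet its fitted difference, with the term for orientation, was -1.08 ± 0.15 (SE; adjusted p = 0.0261). It was called in 18 of 31 alternatives. Without the term for orientation, or with the orientation of the labels for every feature, it was not called.

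**Figure D1:**
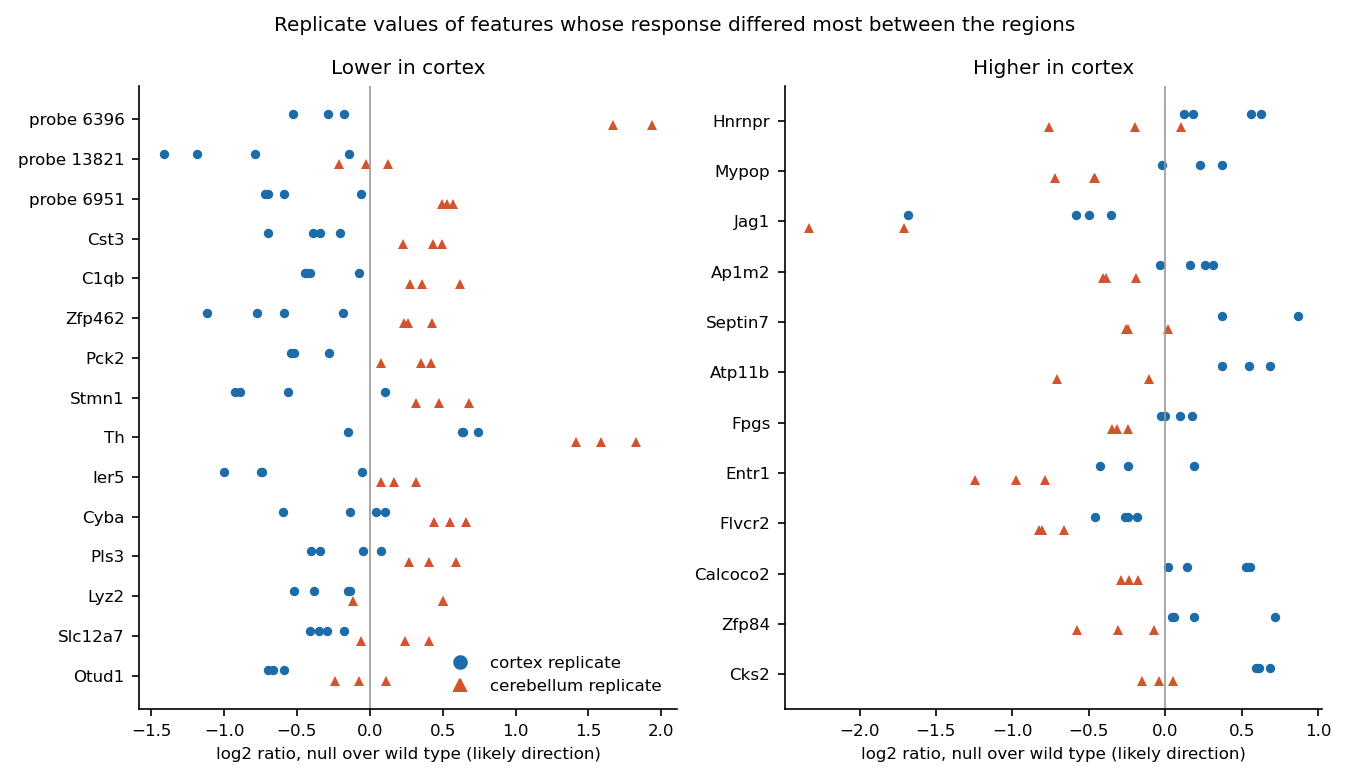
Replicate log2 ratios, null over wild type, of the 3 called unnamed probes and of the 12 named genes lower in cortex (left) and the 12 higher in cortex (right) with the smallest p among genes whose replicates do not overlap. Circles are cortex replicates and triangles cerebellum replicates; Cst3 lies between -0.70 and -0.20 in cortex and between 0.23 and 0.49 in cerebellum.

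Other named genes lay lower in cortex without passing the adjusted test in this fit. They were chosen for replicates that do not overlap, so that separation is their rule and not a result. Over 30 alternatives C1qb passed in 3, Stmn1 in 5, Zfp462 in 6 and Ier5 in 1. For C1qb, Stmn1 and Zfp462 these included a fit with a term per replicate number. C1qb, a chain of the complement protein C1q made by microglia, had ratios of -0.07, -0.41, -0.45 and -0.43 in cortex and of 0.62, 0.36 and 0.28 in cerebellum (difference -0.77 ± 0.15, SE; adjusted p = 0.136), and without DS1 the difference was -0.90 (adjusted p = 0.374). Stmn1, which encodes the microtubule-destabilising protein stathmin, had ratios of 0.10, -0.56, -0.89 and -0.93 in cortex and of 0.68, 0.32 and 0.47 in cerebellum (difference -1.02 ± 0.23, SE; adjusted p = 0.286). In both genes cortex replicate 1 was the nearest to the cerebellum. Zfp462, a zinc finger gene, differed by -0.99 ± 0.19 (SE; adjusted p = 0.151), and Pck2, the mitochondrial phosphoenolpyruvate carboxykinase, by -0.70 ± 0.14 (SE; adjusted p = 0.151). Besides Th, described next, the other members of the set were Ier5, an immediate early gene, Cyba, a membrane subunit of the NADPH oxidase of phagocytes, Pls3, an actin-bundling plastin, Lyz2, the lysozyme of myeloid cells, Slc12a7, a potassium-chloride cotransporter, and Otud1, a deubiquitinase. Their differences lay between -0.81 (Ier5) and -0.51 (Slc12a7).

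Th, tyrosine hydroxylase, the rate-limiting enzyme of catecholamine synthesis, had a fitted response above 0 in both regions and higher in cerebellum. Its ratios were 0.74, -0.15, 0.63 and 0.64 in cortex and 1.82, 1.41 and 1.58 in cerebellum. All cerebellum replicates lay above all cortex replicates. The cerebellum response passed (1.58, adjusted p = 0.000935), the cortex response did not (0.47, adjusted p = 0.09), and the difference of -1.12 ± 0.25 (SE) had an adjusted p of 0.286. Without DS1 it was -1.18 (adjusted p = 0.374).

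The genes higher in cortex were a mixed set, and none passed in this fit. Over 29 alternatives Jag1 passed in 2. Hnrnpr, an RNA-binding protein of splicing, had ratios of 0.12, 0.56, 0.18 and 0.62 in cortex and of -0.20, 0.10 and -0.76 in cerebellum (difference 0.72 ± 0.16, SE; adjusted p = 0.286). Jag1, a ligand of Notch receptors, was below 0 throughout, with -0.36, -0.50, -0.58 and -1.68 in cortex and -2.33 and -1.71 in cerebellum replicates 2 and 3. The Jag1 difference was thus a weaker decrease in cortex, of 1.24 ± 0.28 (SE; adjusted p = 0.286), and the unnumbered cortex array lay next to the cerebellum. The other 10 were Mypop, Ap1m2 (a clathrin adaptor subunit), Septin7 (a filament-forming GTPase), Atp11b (a phospholipid flippase), Fpgs (which adds glutamates to folates), Entr1, Flvcr2, Calcoco2 (an autophagy receptor), Zfp84 and Cks2 (a subunit of cyclin-dependent kinases). Their differences ran from 0.37 (Fpgs) to 0.97 (Septin7). Septin7 rested on 2 cortex replicates. Without DS1 the replicates of Entr1 and Zfp84 overlapped, with differences of 0.77 and 0.34.

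The responses of the regions were also set side by side over all features. Over the 8319 features the fitted responses of the regions correlated at 0.692 (Pearson) and 0.641 (Spearman); features are not independent replicates, and both responses share the fit's orientation term. Without DS1 the Pearson value was 0.684. In cortex 343 features passed against 0 (4.12%) and in cerebellum 255 (3.07%). Of these, 64 passed in both, which is 18.7% of the cortex calls and 25.1% of the cerebellum calls, and 63 of the 64 had one sign. Of the 343 cortex calls 323 had the same sign in cerebellum, and of the 255 cerebellum calls 247 had the same sign in cortex; over all 8319 features 6132 did (73.7%). The difference itself passed for only 3 cortex calls and 2 cerebellum calls, and the other calls made in one region alone had no called difference. These counts moved widely with the processing. Without DS1 the cerebellum count fell to 46, and without the unnumbered array the cortex count fell to 6. With a variance trend and robust moderation 29 features passed in cortex and 25 in cerebellum.

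**Figure D2:**
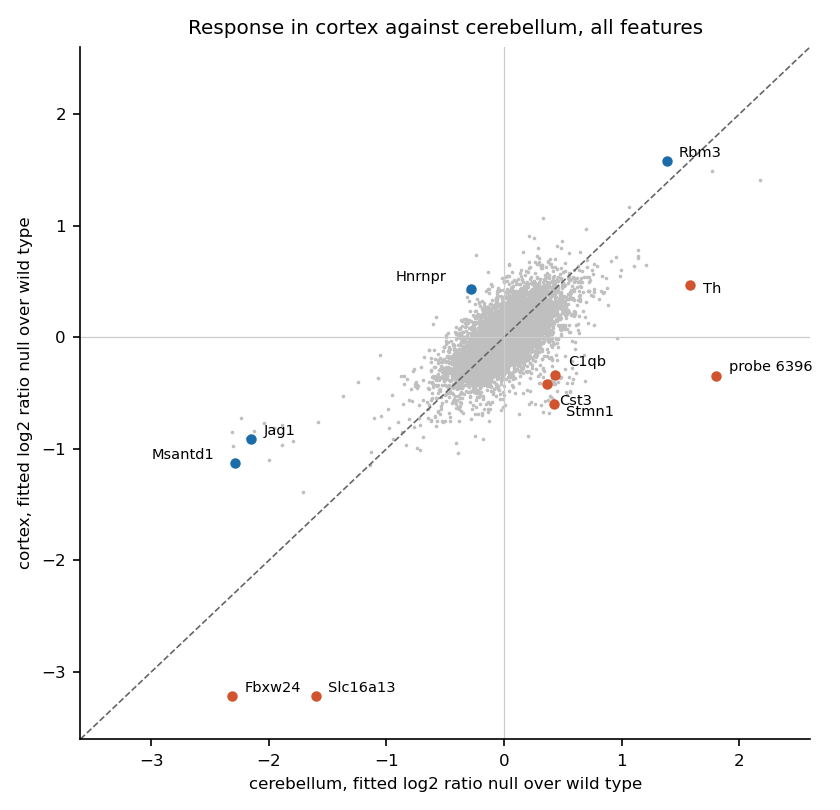
Fitted log2 ratio, null over wild type, in cortex (y axis) against cerebellum (x axis) for all 8319 features in grey, with named features coloured orange where lower in cortex and blue where higher. The dashed line marks equal responses; Rbm3 lies near it, and probe 6396 and Th lie far to its right.

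Genes with the largest response common to the regions give the scale. They were chosen among genes with one sign in every replicate of both regions, so a shared sign is their rule and not a result. Rbm3, a cold-inducible RNA-binding protein, had ratios of 1.61, 1.59, 1.497 and 1.67 in cortex and of 0.98, 1.75 and 1.46 in cerebellum. The replicates overlapped, and the difference of 0.20 had a 95% interval from -0.22 to 0.61 (adjusted p = 0.94). Pabpn1, a nuclear poly(A)-binding protein, was below 0 in every replicate, with a difference of 0.32 (95% interval -0.55 to 1.19). Slc16a13, a member of the monocarboxylate transporter family, had ratios of -3.15, -3.31 and -3.41 in cortex replicates 2, 3 and DS and of -1.03, -1.66 and -2.57 in cerebellum. Its decrease was larger in every cortex replicate, and its difference of -1.62 ± 0.47 (SE) had an adjusted p of 0.414. A further Slc16a13 probe, left out for missing values, had medians of 0.25 over 2 cortex arrays and 0.12 over 4 cerebellum arrays, so the probes of this gene disagree. Fbxw24 had a value in 2 replicates of each region, at -4.03 and -2.98 in cortex and -2.11 and -3.09 in cerebellum, and these overlapped.

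Msantd1, Khdc1b and Xpo4, a nuclear export receptor, shared the pattern of Jag1. All were below 0 in every replicate by the rule of their choice. Their fitted decrease was larger in cerebellum, by 1.16 ± 0.34 (SE; adjusted p = 0.414; 0.85 without DS1), 0.90 ± 0.29 (SE; adjusted p = 0.553) and 1.14 ± 0.39 (SE; adjusted p = 0.586). Msantd1 had ratios of -0.08, -0.99, -1.11 and -2.08 in cortex and of -2.16, -2.37 and -2.07 in cerebellum. The cortex replicates of Msantd1 spread over a wider range than those of the cerebellum, and DS reached into it. Over the alternatives the difference passed in 2 of 30 for Msantd1, 1 of 29 for Khdc1b and 3 of 30 for Xpo4. Xpo4 and Khdc1b each had a further probe, left out for missing values, with a cerebellum median of 0.09 and 0.15 over 3 arrays, so their probes disagree as well.

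Opposite signs with an unadjusted p under 0.05 in both regions were found for 28 features (0.337%). In 26 of them cortex lay below 0 and cerebellum above it, and in 2 the reverse held. Of the 28, 11 had a plain gene symbol, among them Cst3, C1qb, Lyz2 and Stmn1, and Hnrnpr in the other direction. Cks1b, a subunit of cyclin-dependent kinases, had ratios of -0.48, -0.06, -0.91 and -0.54 in cortex and of 0.42, 0.64 and -0.07 in cerebellum. Zc3hc1 had ratios of -0.36, -0.07, -1.02 and -0.45 in cortex and of 0.45, 0.48 and -0.12 in cerebellum. Pdf, a mitochondrial peptide deformylase, had -0.37, 0.02, -1.19 and -0.32, and then 0.41, 0.51 and -0.10. These 3 genes ran in parallel over the 7 replicates, each lowest in cortex replicate 3. Whether their probes share sequence was not tested.

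The measured markers of microglia and immune cells had a lower response, null over wild type, in cortex than in cerebellum. All 7 measured markers of microglia and immune cells, of 24 listed, had a difference below 0, against 4267 of all 8319 features. Their median response was -0.26 in cortex and 0.38 in cerebellum, and the median difference -0.58, against -0.0048 over all features. Of the 7, 5 had an unadjusted p under 0.05 (all features lower in cortex 3.37%), 4 did not overlap (all features lower in cortex 3.09%) and none passed the adjusted test. Without DS1 all 7 stayed below 0, with a median of -0.55. The median over the markers was 0.14, -0.38, -0.41 and -0.42 in cortex replicates 1, 2, 3 and DS and 0.61, 0.36 and 0.21 in cerebellum. Cortex replicate 1 stood above 0 and apart from the other cortex replicates, still below the lowest cerebellum replicate.

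Lyz2 had ratios of -0.15, -0.38, -0.52 and -0.14 in cortex and of 0.50, 0.50 and -0.12 in cerebellum (difference -0.60 ± 0.15, SE; adjusted p = 0.308). C1qc, a further C1q chain, had ratios of 0.27, -0.10, -0.30 and -0.45 in cortex and of 0.61, 0.40 and 0.22 in cerebellum, and these overlapped. C1qa, the remaining chain, was looked up after its values were seen and differed by -0.79 ± 0.24 (SE; adjusted p = 0.476). The 3 chains of C1q thus had differences of -0.79, -0.77 and -0.56. The B-cell gene Ighm, which encodes an immunoglobulin heavy chain, lay at -0.31 in cortex and -0.10 in cerebellum. In bulk tissue fewer cells of a type and less RNA per cell cannot be told apart.

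Astrocyte genes had the same order. All 10 measured markers, of 19 listed, lay lower in cortex (median response -0.18 in cortex, 0.19 in cerebellum; median difference -0.32), 9 of them without DS1 (median -0.28). Cst3 passed (all features lower in cortex 0.0481%), and 6, Cst3 included, had an unadjusted p under 0.05 (all features lower in cortex 3.37%). On the cortex arrays with the mutant RNA in channel 1 the median over the markers was 0.08, -0.01 and -0.08. It was -0.295 and -0.26 on the swapped cortex arrays and from 0.14 to 0.34 on the cerebellum arrays. The metallothionein Mt1, which binds zinc and copper, had ratios of -0.42, -0.01, 0.02 and -0.26 in cortex and of 0.28, 0.21 and 0.58 in cerebellum (difference -0.52 ± 0.16, SE; adjusted p = 0.505). Mt2, its relative, differed by -0.83 ± 0.29 (SE; adjusted p = 0.586), and its replicates overlapped. Glul, the glutamine synthetase of astrocytes, differed by -0.38 ± 0.14 (SE; adjusted p = 0.654) and Aldoc, the aldolase isoform of astrocytes and Purkinje cells, by -0.37 ± 0.14 (SE; adjusted p = 0.645). Gja1, which forms astrocytic gap junctions, and Sparcl1, both named after their values were seen, differed by -0.01 each, with 95% intervals from -0.29 to 0.26 and from -0.41 to 0.38.

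The list named after lysosomal proteases and their inhibitors also holds genes outside that class, such as Timp4. It overlapped the microglial list through Ctsd and the astrocyte list through Cst3. Of 22 measured, 17 lay lower in cortex (median difference -0.15), 16 without DS1. Ctsd, the aspartic protease cathepsin D, had ratios of 0.16, -0.43, -0.16 and -0.21 in cortex and of 0.73, 0.24 and 0.31 in cerebellum (difference -0.58 ± 0.17, SE; adjusted p = 0.414). Every cerebellum replicate of Ctsd lay above every cortex replicate. Timp4, an inhibitor of matrix metalloproteinases, differed by -0.40 ± 0.14 (SE; adjusted p = 0.6). The lysosomal enzymes Tpp1 and Gaa and the cholesterol transporter Npc1, also named after their values were seen, lay at 0.15, 0.14 and 0.18.

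**Figure D3:**
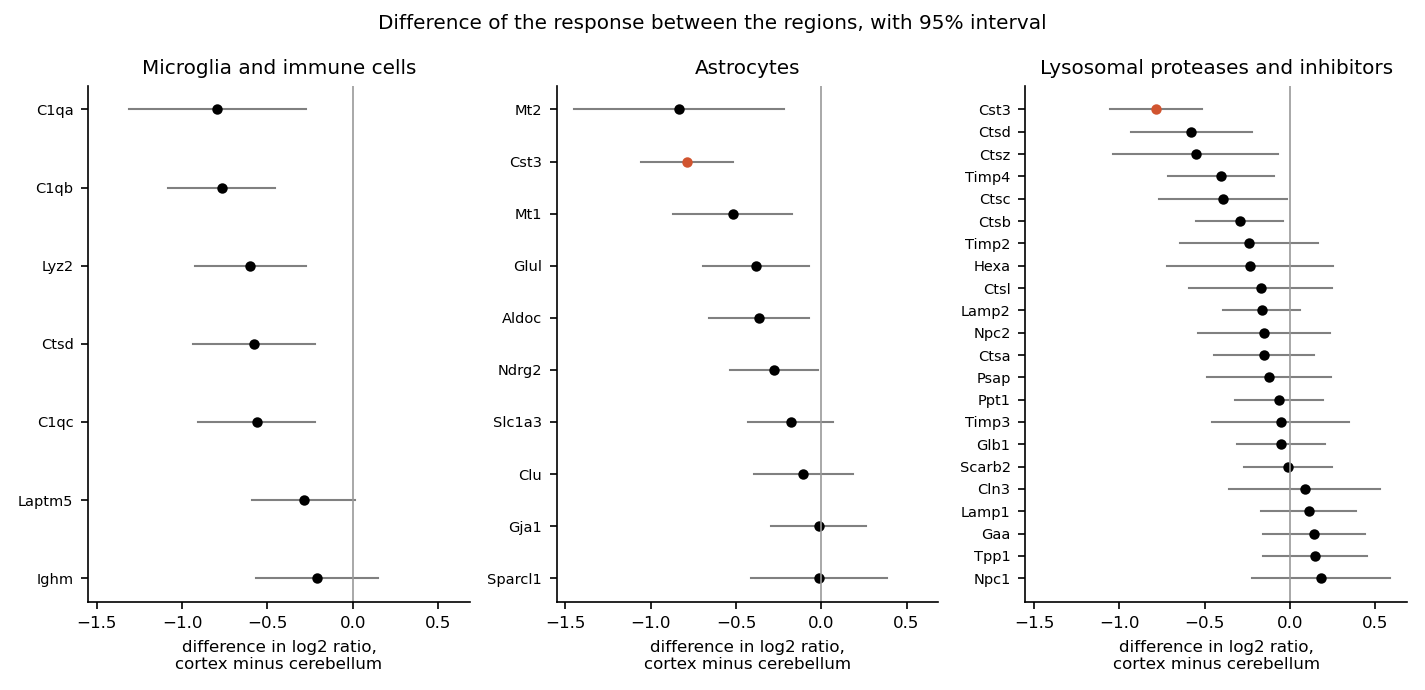
Difference of the log2 ratio, cortex minus cerebellum, for every measured gene of 3 lists, with its 95% interval from the fit. Points left of 0 are lower in cortex; Cst3, at -0.79, is drawn in orange as the only gene of these lists that passed, and it stands on both the astrocyte and the lysosomal list.

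The start regions of Cst3 and C1qb are shown because these genes of different chromosomes lay lower in cortex together. Both are the 250 bases before the RefSeq start on build GRCm38.p6, 5′ to 3′ on the minus strand, Cst3 at chr2:148875513-148875762 and C1qb at chr4:136886201-136886450. Capitals mark matches on either strand to any of 4 motifs. The TATA box was searched as TATAAA. The GC box, bound by Sp1, was searched as GGGCGG. The CCAAT box was searched by the letters of its name. The core of the sites of PU.1, a transcription factor of myeloid cells, was searched as GAGGAA.
Cst3: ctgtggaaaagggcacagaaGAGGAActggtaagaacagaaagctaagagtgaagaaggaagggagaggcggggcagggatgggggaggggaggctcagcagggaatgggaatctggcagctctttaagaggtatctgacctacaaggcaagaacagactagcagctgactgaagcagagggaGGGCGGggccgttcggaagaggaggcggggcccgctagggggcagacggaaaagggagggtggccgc
C1qb: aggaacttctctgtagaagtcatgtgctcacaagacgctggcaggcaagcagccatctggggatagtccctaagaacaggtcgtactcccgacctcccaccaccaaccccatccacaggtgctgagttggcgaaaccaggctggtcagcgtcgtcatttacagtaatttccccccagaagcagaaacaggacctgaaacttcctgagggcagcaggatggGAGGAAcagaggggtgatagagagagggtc
GAGGAA began 230 bases before the start of Cst3 and 30 bases before that of C1qb, and Cst3 also held a GC box 67 bases before its start. The matches did not overlap. Of 32851 RefSeq promoter windows of this length, 23.3% held GAGGAA, 32.7% the GC box, 33.8% CCAAT and 12.4% the TATA box. The windows of Lyz2 and Ctsd, searched as well, held no GAGGAA. That of Ctsd held GC boxes 204 and 117 bases before its start, and that of Lyz2 held none of the 4 motifs. A match describes letters only.

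Cytosolic ribosomal protein genes lay slightly lower in cortex as a group. Of 66 measured, 55 had a difference below 0, with a median of -0.13 against -0.0048 over all features. Their median response was 0.00 in cortex and 0.16 in cerebellum. In all 9 had an unadjusted p under 0.05, all lower in cortex (all features 3.37%), and none passed. Without DS1, 53 lay below 0 (median -0.13), and over 30 alternatives the median ran from -0.18 to -0.09. The median over the list was 0.19, 0.02, -0.04 and -0.11 in the cortex replicates and 0.28, 0.14 and 0.14 in cerebellum, so cortex replicate 1 overlapped the cerebellum range.

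Rpl17, a protein of the large subunit, had ratios of 0.09, 0.22, 0.12 and -0.18 in cortex and of 0.44, 0.47 and 0.45 in cerebellum (difference -0.38 ± 0.12, SE; adjusted p = 0.523). Rps6, a protein of the small subunit, had ratios of -0.03, 0.15, -0.15 and -0.22 in cortex and of 0.16, 0.40 and 0.28 in cerebellum (difference -0.34 ± 0.12, SE; adjusted p = 0.59). The replicates of both genes were apart, those of Rps6 by a small margin. The 3 probes of Rps6 that entered disagreed, with differences of 0.02, -0.92 and -0.15, while both Rpl17 probes lay lower in cortex, at -0.35 and -0.41. Rps10 differed by -0.36 and overlapped.

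Oxidative phosphorylation genes leaned the other way. Of 47 measured, 30 lay higher in cortex (median difference 0.08, with responses of -0.04 in cortex and -0.15 in cerebellum), and 35 without DS1. In all 5 had an unadjusted p under 0.05, all higher in cortex (all features 2.74%). The lean depended on the samples used. Without cortex replicate 1 alone, 22 of 47 lay higher and the median was -0.03. Without number 1 of every region, 30 lay higher and the median was 0.07. Cox7c, a subunit of cytochrome c oxidase, had ratios of -0.36, 0.64, 0.69 and 0.33 in cortex and of -0.30, -0.32 and -0.37 in cerebellum (difference 0.62 ± 0.23, SE; adjusted p = 0.651). Here cortex replicate 1 sat among the cerebellum replicates and the other cortex replicates lay above them.

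**Figure D4:**
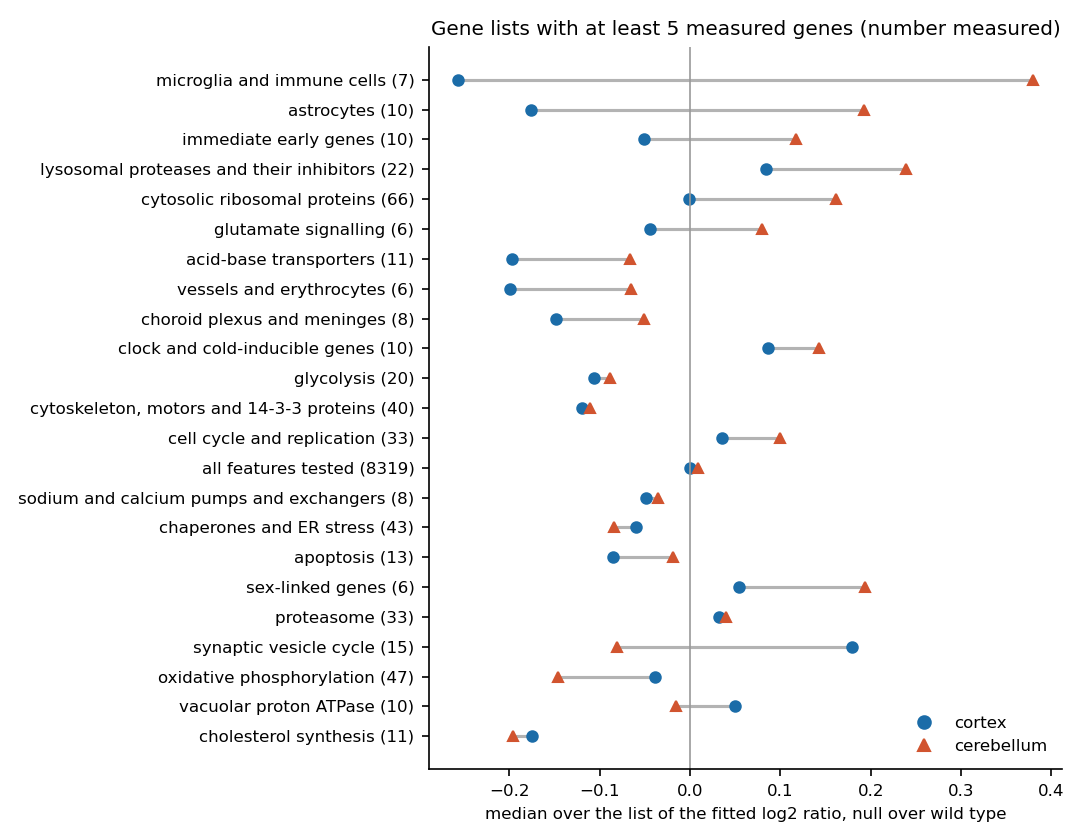
Median over each gene list of the fitted log2 ratio, null over wild type, in cortex (circles) and cerebellum (triangles), for lists with at least 5 measured genes, ordered by the median difference; the number measured is in parentheses. Microglia (-0.26 and 0.38) and astrocytes (-0.18 and 0.19) lie furthest apart, and all features lie near 0.

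Among immediate early genes, which neurons switch on with activity, 8 of 10 lay lower in cortex (median difference -0.15, and -0.17 without DS1), and none passed. Ier5 had ratios of -0.05, -0.75, -0.74 and -1.003 in cortex and of 0.07, 0.17 and 0.32 in cerebellum, with a difference of -0.81 ± 0.20 (SE; adjusted p = 0.286). Fos ratios were -0.29, -0.03, 0.38 and 0.79 in cortex and 0.49, 0.53 and 0.70 in cerebellum, and they overlapped. Klf6 differed by -0.19 (adjusted p = 0.922).

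Genes of acid-base and ion transport showed no called difference. Of 11 acid-base transporters and carbonic anhydrases, 7 lay lower in cortex (6 without DS1) and 4 higher, from -0.29 (Car4) to 0.33 (Car7). Of 10 genes of the vacuolar proton ATPase, which acidifies vesicles, 7 lay higher in cortex (6 without DS1). Its subunit Atp6v1b2 had ratios of 0.29, 0.65, 1.02 and 0.80 in cortex and of 0.03, 0.31 and 0.33 in cerebellum (difference 0.47 ± 0.21, SE; adjusted p = 0.796). Of 8 sodium and calcium pumps and exchangers, 4 lay lower and 4 higher, and without DS1 2 and 6. The 4 measured voltage-gated channel genes differed by -0.30 to 0.14, with 2 on each side, and without DS1 1 lay lower and 3 higher.

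No gene passed on the remaining lists. Of 15 synaptic vesicle genes 10 lay higher in cortex, of 43 chaperones 24, of 33 proteasome genes 17 and of 33 cell cycle genes 14. Of 11 cholesterol synthesis genes, 2 had a response above 0 in cortex and 3 in cerebellum (medians -0.18 and -0.20). In cortex 1 was called above 0 and 1 below (140 and 203 of all 8319 features). In cerebellum 1 was called below 0 (131 of all 8319 features). In 8 of the 11 the ratio was higher in cortex (median difference 0.11, and 0.03 without DS1). Among clock and cold-inducible genes, Ciart, a repressor of the circadian clock, had ratios of 0.34, 1.66, 0.74 and 0.82 in cortex and of 0.18, 0.16 and 0.23 in cerebellum (difference 0.64 ± 0.21, SE; adjusted p = 0.524). Its replicates were apart.

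Markers of other cell types were few on the array. Of 4 myelin genes 2 lay lower in cortex; Mbp, myelin basic protein, had ratios of -0.08, -0.29, -1.05 and 0.05 in cortex and of -0.03, 0.31 and 0.32 in cerebellum (difference -0.55 ± 0.24, SE; adjusted p = 0.796), and without DS1 the difference was -0.78 (adjusted p = 0.613). Of 6 markers of vessels and erythrocytes 4 lay lower, and of 8 markers of choroid plexus and meninges 5. Ttr, the transthyretin of the choroid plexus, named after its values were seen, was at -0.70 in cortex and -1.05 in cerebellum, and its difference of 0.34 turned to -0.09 without DS1. All 4 markers of cerebellar neurons lay lower in cortex (median difference -0.11), 2 without DS1. The part that cell content has in the differences was not tested.

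**Figure D5:**
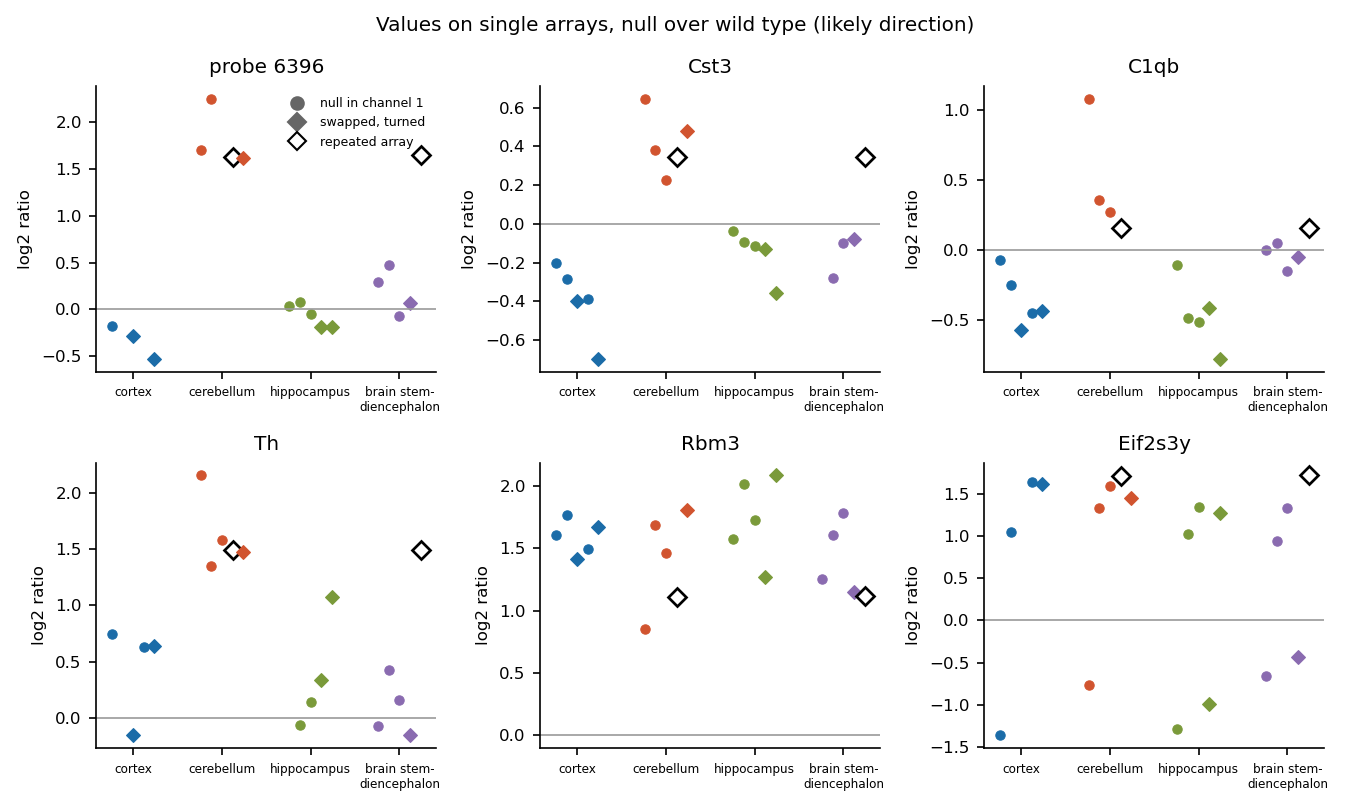
Log2 ratio, null over wild type, on each single array of the 4 regions for 6 features; circles have the null RNA in channel 1, filled diamonds are swapped arrays, turned, and open diamonds the array deposited under both cerebellum and brain stem-diencephalon. For Cst3 the open diamonds lie at 0.34 and 0.35, within the cerebellum arrays (0.23 to 0.64); for Eif2s3y they lie at 1.71 and 1.72.

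The repeated array is described on features that differed most. They were chosen in a fit that counts this array under cerebellum, so its place among them is no test of its region. On probe 6396 it lay at 1.63, beside 1.62 to 2.25 on the other cerebellum arrays and -0.07 to 0.47 on the other brain stem-diencephalon arrays. On Th it lay at 1.49, beside 1.35 to 2.16 and -0.16 to 0.42. On probe 6951 it lay between the groups, at 0.22, beside 0.53 to 0.77 on the other cerebellum arrays and -0.14 to 0.11 on the other brain stem-diencephalon arrays. Over all probes it correlated at 0.672 with the swapped array of cerebellum number 2 and at 0.518 with the swapped array of brain stem-diencephalon number 1, against 0.408 to 0.544 with the swapped arrays of cortex and hippocampus. With the channel 1 arrays of cerebellum it correlated at -0.0151, 0.185 and 0.216 for numbers 1, 2 and 3. The first of these is the array averaged with it as cerebellum replicate 1. For channel 1 arrays the values were -0.264, 0.0494 and 0.0406 in brain stem-diencephalon and -0.209 to 0.342 in cortex and hippocampus. The sources used here do not settle its region.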

How the data were processed

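The values are the authors' deposited log2 ratios (read as log2; no source used here gives their base or channel order) for 15245 probes. Swapped arrays were multiplied by -1 and every array centred on its median. Probes measured on at least 3 arrays per region, including 1 of each orientation, were kept (9701), and probes of a gene averaged, giving 8319 features, 5255 with a gene symbol. Symbols came from the platform annotation, updated through RefSeq. Arrays of one region and number were averaged. A linear model over 13 replicates, with a term per region and one for orientation, was moderated with limma 3.58.1 (R 4.3.3), and p-values were adjusted by Benjamini-Hochberg over all features with a threshold of 0.05. The code was tested on simulated data. The orientation of a replicate was that of the arrays with a value for the feature; the labels' orientation is an alternative, and both counts were known when this was chosen. Spot intensities were not used, and the few arrays limit the precision.

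The region pair, gene lists and tests were chosen with earlier results of these data known. Named genes were the 12 on each side with the smallest p among those whose replicates did not overlap, 8 with opposite signs, 8 with the largest common response, 3 per list by p, and sex-linked checks. The 8 with a common response were chosen among genes with one sign in every replicate of both regions. RIKEN clones, predicted genes and pseudogenes were left out, and the mutated gene is not reported here. Replicate numbers were not taken as pairs. Alternatives covered the repeated array, the samples, orientation, replicate number, averaging, centring, scale, missing values, moderation, probes and leaving out each replicate.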

Additional observations from a re-analysis of the deposited data

Results flagged for a closer look

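In 90 groups of 4 cortex replicates, 4 had a replicate far from the others, and chance gives about 1 in 20. C1qb lay at -0.071 in cortex replicate 1 and between -0.447 and -0.41 in the others. Cacna2d3, a calcium channel subunit, lay at -0.285 in cortex replicate 1 and between 0.181 and 0.238 in the others. Th lay at -0.152 in cortex replicate 2, a value from the swapped array alone, and between 0.632 and 0.745 in the others. Hoxb8, a homeobox gene, lay at -0.386 in the unnumbered cortex array and between 0.0523 and 0.133 in the others.

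The response differed between cortex and cerebellum by the test of the difference itself for probe 6396 (-2.15), probe 13821 (-1.08), probe 6951 (-1.05) and Cst3 (-0.787).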

How the results depend on the processing

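Against 4 calls of the difference, 3 passed without DS1 and 3 without both copies of the repeated array. Other counts were 2 with cortex and cerebellum alone in the fit (probe 6396 and Jag1), 2 with a value on 1 array of every region, 1 with a variance trend and robust moderation, 7 and 12 with every array as a sample with and without a random block, and 16 without number 1 of any region. The labels' orientation, chosen after seeing the data, gave 1, probe 6396. Leaving out 1 replicate gave 0 to 10 calls (0 without the unnumbered cortex array, hippocampus replicate 2 or 3, or cerebellum replicate 1 or 2, with 368, 476, 471, 432 and 379 at an unadjusted p under 0.05; 10 without cortex replicate 1). It gave 6 to 1689 cortex calls (6 without the unnumbered array, 1689 without cortex replicate 1) and 20 to 456 cerebellum calls (20 without cerebellum replicate 2, 456 without hippocampus replicate 1). Without DS1 the cerebellum had 46 calls in place of 255, and 48 without both copies. Cortex and cerebellum calls were 8 and 57 with the replicate block, 29 and 25 with the trend and robust moderation, 37 and 142 with arrays scaled to one spread, 2177 and 557 without number 1, and 771 and 742 or 1207 and 1451 with every array as a sample with or without a random block; cortex had 222 without an orientation term. No named value that was called turned its sign.

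Same-numbered replicates of cortex and cerebellum had correlated deviations of 0.223, 0.25 and -0.000268 for numbers 1, 2 and 3 (0.631, 0.279 and 0.0533 without DS1). Number 3 stayed under 0.1, so the numbers were not taken as pairs. Values from so few replicates cannot exclude pairing, and the main p-values do not allow for it. The Eif2s3y values of the arrays numbered 1 are a hint from the data, not the design, that this number is shared. The replicate block gave 21 calls, 10 higher and 11 lower in cortex, with 8 symbols (Cdh5, Msantd1, Stmn1, Cst3, Zfp462, Magi3, C1qb and Xpo4; C1qb at -0.73, adjusted p = 0.0333), and 13 when DS1 was also left out, a setting added after seeing the data. The causes of these changes were not tested.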
